A study of Mus musculus with 9 samples.

Results

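Potassium channel genes were taken as the mouse genes whose symbol starts with Kcn, without Kcnj13 and Kcne2, and 85 of the 18820 genes measured met this rule. They comprise 34 genes for pore subunits of voltage-gated channels, 12 for auxiliary subunits of those channels, 14 for inward rectifiers, 14 for two-pore channels, and 11 for calcium-activated channels with their sodium-activated relatives and auxiliary subunits. RNA came from the hippocampus of C57BL/6 mice aged 12-14 weeks and was hybridised to 9 Affymetrix arrays, 3 for each of 3 conditions. The conditions were control, a tibia fracture made by orthopedic surgery (surgery), and the same fracture in mice given Maresin 1, a lipid mediator made from docosahexaenoic acid, beforehand (Surgery+Maresin1). The tissue was collected at 72 h after the fracture, and neither the dose of Maresin 1 nor a sham or vehicle treatment of the controls is given in the labels. The titles call the arrays of a group biological replicates. Whether each array came from a separate animal is not stated further, so p-values measure the spread between these arrays.

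Potassium channels let potassium leave the cell and so set the resting potential, end action potentials and limit repetitive firing. Voltage-gated channels open on depolarisation, and their auxiliary subunits alter gating and transport to the membrane. Inward rectifiers and two-pore channels carry current near rest, and calcium-activated channels open when calcium enters during a spike. In hippocampus these families together set dendritic excitability, afterhyperpolarisation, the slow inhibitory response to metabotropic transmitters and the uptake of potassium by astrocytes. Vessel wall cells use some of the same families to set vascular tone.

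Each value below is a level, log2(signal + 16) after quantile normalisation, or a difference of 2 such group means, which understates the change of dim genes. Differences were tested with limma in one model over all 9 arrays, with a call defined as p under 0.05 after Benjamini-Hochberg adjustment over 18820 genes. A guide to background was 5.86, the level that 95% of 990 olfactory receptor genes do not pass. It lay below 70 of the 85 potassium channel genes, 82.4%, and below 71% of all genes. The 15 genes at or below it were the pore genes Kcna7, Kcnq1 and Kcnv2, the auxiliary genes Kcne1, Kcne3 and Kcne4, the inward rectifiers Kcnj1, Kcnj5, Kcnj14 and Kcnj15, the two-pore genes Kcnk5, Kcnk16 and Kcnk18, and Kcnn4 and Kcnu1.

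The median deposited signal differed up to 1.85-fold between arrays, and the number of arrays limits the precision. Marker lists of dentate granule cells, CA1, CA3 and forebrain neurons lay above the olfactory guide in every measured gene. The thalamus and fibroblast lists did so too, so this cannot tell hippocampus from the tissue around it. Control replicates 2 and 3 stood apart from the other 7 arrays in a choroid plexus list, with mean deviations from the 9-array mean of 2.50 and 2.86 against -0.89 to -0.62. The list had 12 of its 14 genes measured and 10 above the guide, its summed signal ran from 977 to 19894 in control, 867 to 1096 in surgery and 1057 to 1200 in Surgery+Maresin1, and none of its genes was listed at 0. Kcnj13 and Kcne2, the choroid plexus potassium channel genes left out here, are among these markers.

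No potassium channel gene was called in any of the 3 comparisons. In surgery against control 0 of 85 were called where 0% of all genes were, and the smallest adjusted p among them was 0.734 by limma. Maresin 1 with surgery against surgery alone also gave 0 of 85, with 0% of all genes called and a smallest adjusted p of 0.859. Maresin 1 with surgery against control gave 0 of 85 where 0.085% of all genes, 16 in number, were called, and the smallest adjusted p was 0.129, for Kcnt2. The comparisons share arrays, surgery in the first pair and control or Surgery+Maresin1 in the others, so they do not repeat each other independently.

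The intervals show how large a difference the data leave room for. Of the 85 single-gene 95% intervals, 83 lay wholly within a 1.5-fold change in either direction for surgery against control, 84 for Maresin 1 with surgery against surgery and 83 for Maresin 1 with surgery against control. The genes with an interval that passed this bound were Kcne1l, Kcnmb1 and Kcnj14. The median SD within groups was 0.107 for the potassium channel genes and 0.107 for all genes. Differences ran from -0.24 to 0.31, from -0.28 to 0.36 and from -0.29 to 0.28 in the order of comparisons above. These bounds apply gene by gene and are not adjusted for the number of genes.

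**Figure D1:**
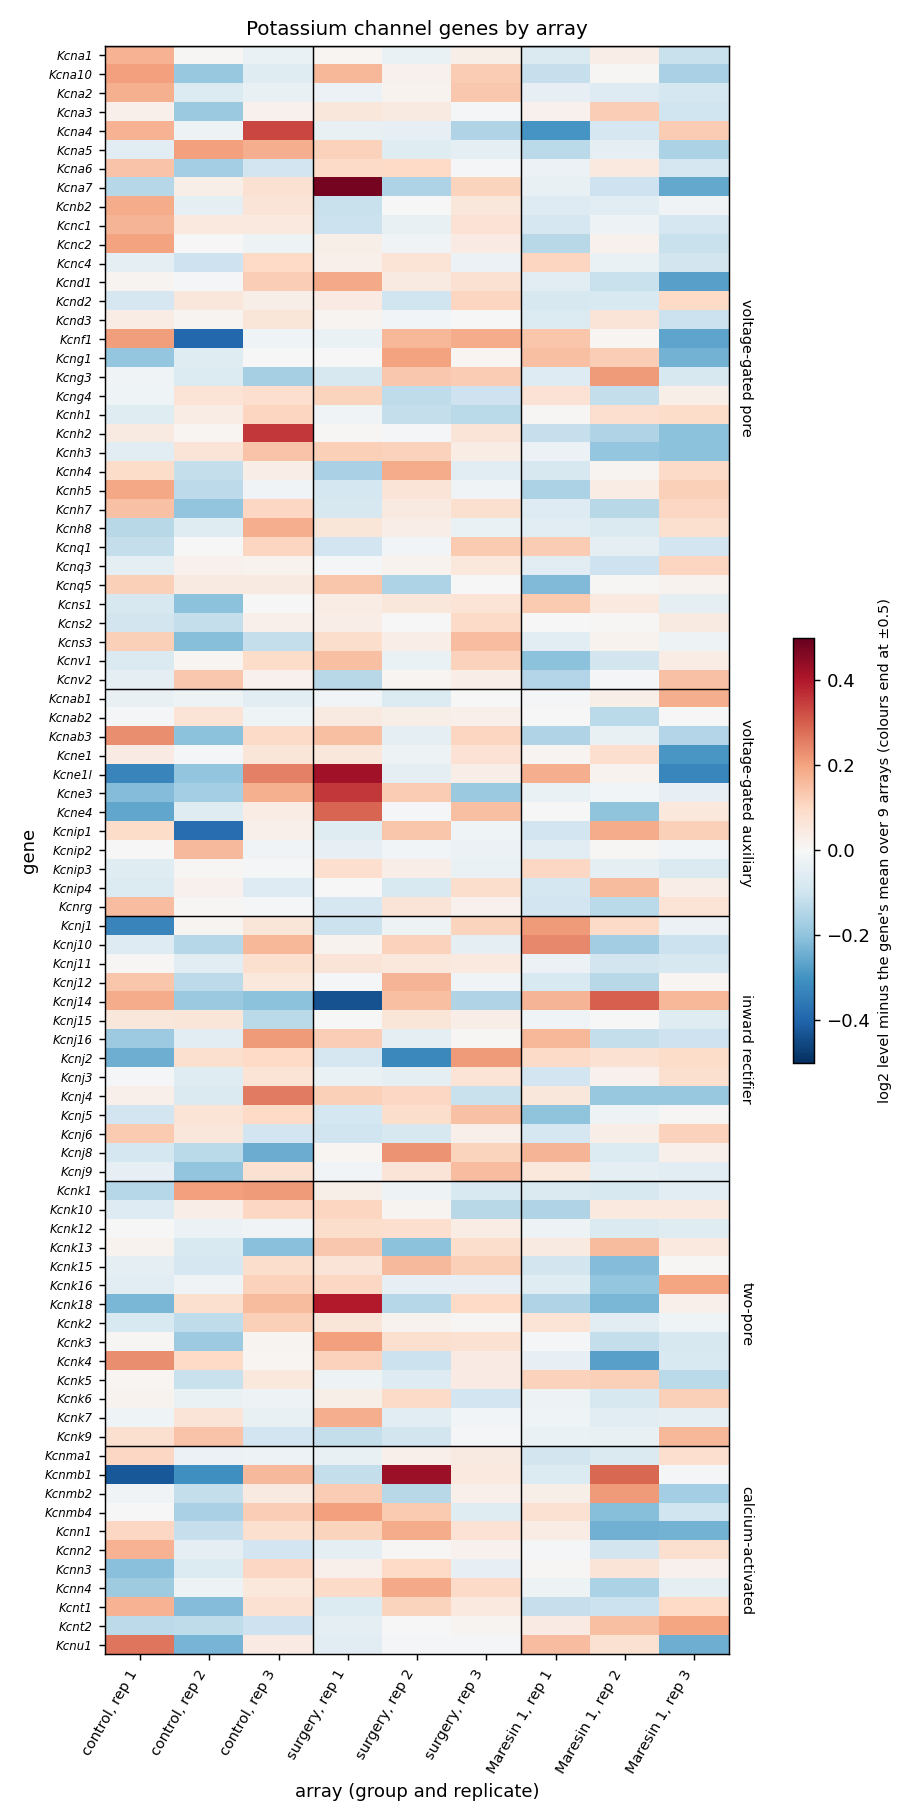
Heat map of all 85 potassium channel genes (rows, grouped by class) in the 9 arrays (columns, by group and replicate), coloured by the log2 level minus the gene's mean over the 9 arrays. Deviations are small and mixed in sign within each class, and no block of genes separates the 3 groups.

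At an unadjusted p under 0.05, 3 of 85 genes differed between surgery and control, 3.53% beside 6.21% of all genes. Kcnj8 and Kcnk3 stood higher and Kcna4 lower. The same threshold was passed by 11 genes, 12.9% beside 5.66% of all genes, in Maresin 1 with surgery against surgery, with 3 higher and 8 lower. That count depended on processing. It was 1 with no normalisation between arrays, 6 with arrays scaled to one median, 4 with centred values and 13 in the 2-group fit. With one array left out it ran from 2, without Surgery+Maresin1 replicate 2, to 11. In Maresin 1 with surgery against control the threshold was passed by 8 genes, 9.41% beside 11.5% of all genes, with Kcnt2 higher and 7 lower. The first and last shares are at or below the background, and none of these genes passed the adjusted threshold.

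Groups of arrays that did not overlap gave a like picture. After surgery 7 potassium channel genes, 8.24%, had all 3 arrays above all controls, beside 7.71% of all genes, and 1 gene, 1.18%, had all below, beside 3.82%. With Maresin 1 against surgery 3 genes, 3.53%, lay wholly higher beside 4.79% of all genes, and 14 genes, 16.5%, lay wholly lower beside 8.2%. With Maresin 1 against control 4 genes, 4.71%, lay wholly higher beside 7.61%, and 5 genes, 5.88%, wholly lower beside 6.71%. The one share well above its background is that of lower values in Maresin 1 with surgery against surgery. The 14 genes were Kcna2, Kcna10, Kcnd1, Kcnh2, Kcnh3, Kcns3, Kcnab2, Kcnj11, Kcnj15, Kcnk3, Kcnk12, Kcnk15, Kcnn1 and Kcnn4, so that every class holds at least 1 of them.

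In the same comparison 63 of the 85 differences were below 0, 74.1% beside 58.3% of all genes, and their median was -0.0452 beside -0.0191. After surgery 54 of 85 lay above 0, 63.5% beside 58.4%, with a median of 0.0275 beside 0.0195. With Maresin 1 against control 52 of 85 lay below 0, 61.2% beside 51.0%, with a median of -0.0205 beside -0.0032. On single arrays the median deviation of the 85 genes from the 9-array mean was -0.0067, -0.0497 and 0.047 in control, 0.0256, 0.0172 and 0.0326 in surgery, and -0.034, -0.0382 and -0.0262 in Surgery+Maresin1. The surgery arrays lay above the Surgery+Maresin1 arrays, and the controls spanned both. The share below 0 in Maresin 1 with surgery against surgery was 71.8% of members and 50.7% of all genes with no normalisation between arrays, and 89.4% and 77.0% with arrays scaled to one median. Genes are not independent replicates, and no test was made over them.

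**Figure D2:**
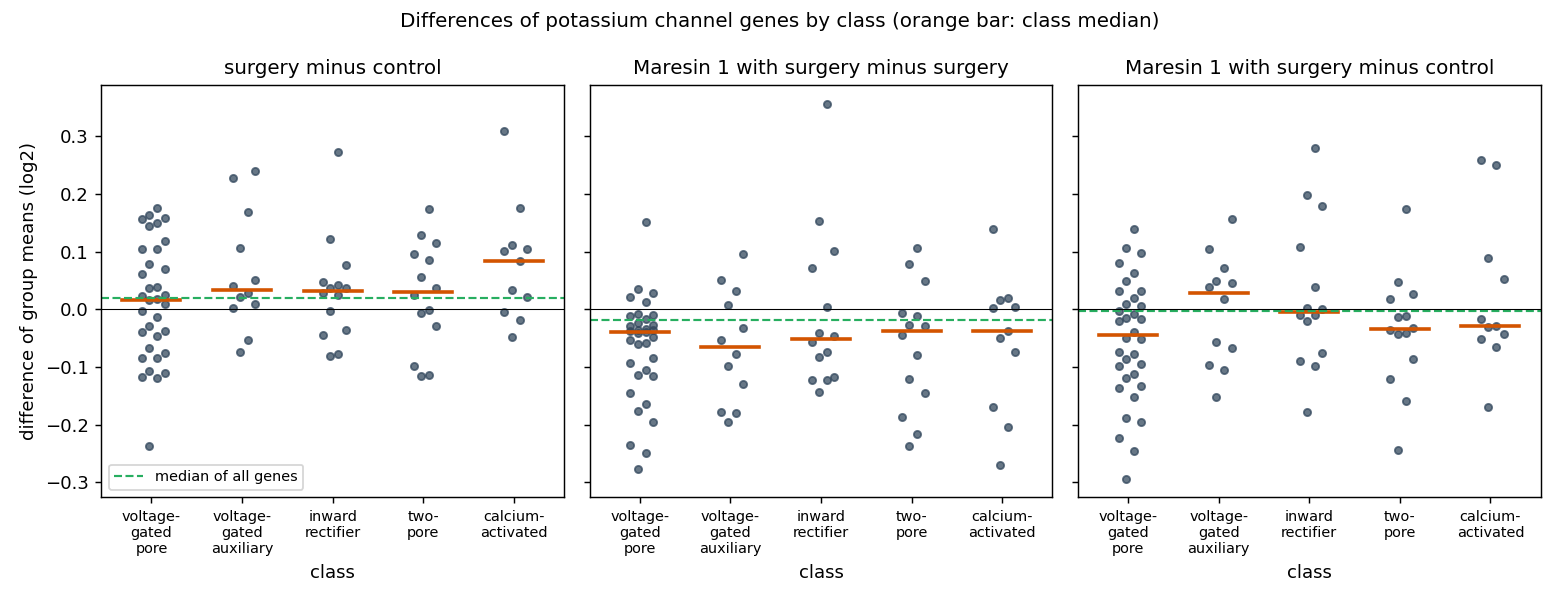
Differences of group means (log2) for each potassium channel gene (points) by class, in the 3 comparisons, with the class median as an orange bar and the median of all genes as a dashed green line. The medians of all 5 classes lie below 0 for Maresin 1 with surgery minus surgery, from -0.0658 to -0.0374, while single genes spread between -0.28 and 0.36.

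For some of the genes with the smallest p, the 250 bases before the start site show what lies upstream. They come from RefSeq on GRCm38.p6, which matched 65 of the 85 genes. Kcnt2 had the smallest p in Maresin 1 with surgery against control, Kcnh2 the next, and Kcnj8 the smallest in surgery against control. Kcnh3, with the smallest p in Maresin 1 with surgery against surgery, is not shown. Kcnj9 is shown as the one of the 65 with the TATA box letters TATAAA in its window. They lie nearer the far end of the window than the start site. Capitals mark TATAAA in Kcnj9 and the GC box GGGCGG in Kcnh2.
Kcnt2, chr1:140245468-140245717, plus strand: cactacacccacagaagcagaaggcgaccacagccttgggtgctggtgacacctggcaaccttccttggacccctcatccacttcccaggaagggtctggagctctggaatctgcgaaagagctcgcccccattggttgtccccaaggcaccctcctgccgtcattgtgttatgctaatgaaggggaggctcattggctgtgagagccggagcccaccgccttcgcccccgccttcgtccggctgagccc
Kcnh2, chr5:24329592-24329841, minus strand: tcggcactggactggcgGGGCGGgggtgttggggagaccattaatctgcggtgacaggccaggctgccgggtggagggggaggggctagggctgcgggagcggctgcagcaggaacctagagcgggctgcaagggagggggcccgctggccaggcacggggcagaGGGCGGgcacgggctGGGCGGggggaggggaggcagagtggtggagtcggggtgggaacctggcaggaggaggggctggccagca
Kcnj8, chr6:142571615-142571864, minus strand: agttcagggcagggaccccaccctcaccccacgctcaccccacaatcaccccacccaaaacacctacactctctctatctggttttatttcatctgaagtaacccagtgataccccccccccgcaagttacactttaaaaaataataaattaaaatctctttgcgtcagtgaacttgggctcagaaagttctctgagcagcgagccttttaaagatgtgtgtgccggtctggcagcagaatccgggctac
Kcnj9, chr1:172329323-172329572, minus strand: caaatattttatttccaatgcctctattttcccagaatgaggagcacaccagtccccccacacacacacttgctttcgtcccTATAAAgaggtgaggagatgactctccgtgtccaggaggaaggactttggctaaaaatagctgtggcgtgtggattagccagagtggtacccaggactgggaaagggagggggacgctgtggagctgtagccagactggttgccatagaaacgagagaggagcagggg

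Each sequence reads 5′ to 3′ towards its gene, and the motifs were searched on both strands. TATAAA stood in 1 of 65 windows, 1.54%, beside 13.0% of the 27025 windows of the same length in the table. GGGCGG stood in 32 of 65, 49.2%, beside 32.9%, and Kcnh2 holds it 3 times. The cAMP response element TGACGTCA stood in 0 of 65, beside 1.62%. The median GC content was 58.8% for potassium channel genes and 52.0% for all windows, and the median number of CG pairs was 8 and 6. The windows of Kcnt2 and Kcnj8 held none of the 3 motifs as spelled, although their base composition differs, with 61.6% and 49.2% GC. A match is a run of letters and not a shown binding site.

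The 34 voltage-gated pore genes were the class with the most one-sided values in Maresin 1 with surgery against surgery, where 29 lay below 0, with a median of -0.0402. The medians of the class on single arrays, as deviations from the 9-array mean, were 0.0205, -0.0173 and 0.0401 in control, 0.0201, 0.0133 and 0.0472 in surgery, and -0.0611, -0.0179 and -0.0824 in Surgery+Maresin1. The Surgery+Maresin1 arrays were lower than every surgery array, but replicate 2 lay close to control replicate 2. Dentate granule cell markers were higher in the same comparison in 7 of 7 genes, by 0.26 on average, with summed signals of 5578 to 5690 in surgery, 6255 to 7042 in Surgery+Maresin1 and 4830 to 6257 in control. CA1 markers were higher in 0 of the 4 measured, with a mean of -0.11. CA3 markers were higher in 1 of the 4 measured (mean -0.02), hippocampal and forebrain neuron markers in 2 of 6 (mean -0.02) and interneuron markers in 1 of 6 (mean -0.05). None of these markers was at 0, and their part in the channel values was not tested. In bulk tissue, fewer cells of a type and less RNA per cell cannot be told apart.

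Among pore subunits, an elk and an erg gene had the smallest p with Maresin 1, against surgery and against control. Kcnh3 (probe set 10426704) encodes an elk-family channel of forebrain neurons that opens below threshold. Its levels were 9.94, 10.05 and 10.13 in control, 10.11, 10.11 and 10.03 in surgery, and 9.96, 9.79 and 9.78 in Surgery+Maresin1. All 3 Surgery+Maresin1 arrays lay below all surgery arrays, while they overlapped the controls. The difference from surgery was -0.23 (SE 0.06, adjusted p = 0.859 by limma), and from control it was -0.20 (SE 0.06, adjusted p = 0.261 by limma). Over the alternatives the first value ran from -0.39 to -0.20 and never changed sign.

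Kcnh2 (probe set 10528548) encodes the erg channel that repolarises the heart and slows firing in neurons. Its levels were 8.71, 8.68 and 9.02 in control, 8.67, 8.66 and 8.73 in surgery, and 8.55, 8.52 and 8.46 in Surgery+Maresin1. The Surgery+Maresin1 arrays lay below the arrays of both other groups, and control replicate 3 was the highest of the 9. Against control the difference was -0.29 (SE 0.09, adjusted p = 0.202 by limma), or -0.18 without control replicate 3, and against surgery it was -0.18 (SE 0.09, adjusted p = 0.859 by limma). The promoter window of this gene is the GC-rich one printed above.

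Kcnh1, which encodes the eag channel, went the other way. Its levels were 10.06, 10.16 and 10.23 in control, 10.10, 10.00 and 9.99 in surgery, and 10.12, 10.20 and 10.21 in Surgery+Maresin1. The surgery arrays were the lowest group, and Surgery+Maresin1 lay above them without overlap by 0.15 (SE 0.06, adjusted p = 0.859 by limma), a difference that turned to -0.0093 when arrays were scaled to one median. Kcnh7, an erg relative, showed little, with -0.05 (SE 0.09) in that comparison and a 95% interval from -0.25 to 0.15.

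Among the A-type channels, which open early in depolarisation and delay the spike, Kcna4 and Kcnd1 had the smallest p. Kcna4 stood at 9.14, 8.94 and 9.30 in control, 8.93, 8.93 and 8.82 in surgery, and 8.67, 8.88 and 9.10 in Surgery+Maresin1. All surgery arrays lay below the controls, but only just at the nearest pair, 8.93 and 8.94, and the group difference was -0.24 (SE 0.11, adjusted p = 0.784 by limma), or -0.15 without control replicate 3. Surgery+Maresin1 differed from control by -0.25 (SE 0.11, adjusted p = 0.402 by limma) with arrays that overlapped the controls, a value of -0.16 without control replicate 3 and -0.14 without Surgery+Maresin1 replicate 1. Kcnd1 stood at 7.43, 7.41 and 7.54 in control, 7.61, 7.46 and 7.50 in surgery, and 7.37, 7.31 and 7.15 in Surgery+Maresin1. Its Surgery+Maresin1 arrays were the lowest of the 9, by -0.25 (SE 0.09, adjusted p = 0.859 by limma) from surgery and -0.19 (SE 0.09, adjusted p = 0.43 by limma) from control.

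Kcnd2, the main dendritic A-type subunit of pyramidal cells, differed by 0.02 (95% interval -0.13 to 0.16) after surgery and by -0.04 (-0.18 to 0.10) with Maresin 1 against surgery. Its relative Kcnd3 differed by -0.04 (-0.15 to 0.08) in both, and its second probe set by -0.0166 and -0.0744. The surgery value of Kcnd3 turned positive under 2 of the scaling alternatives. For both genes the arrays of the 3 groups overlapped.

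Among the delayed rectifiers and fast channels no gene was called, and Kcnc1 passed an unadjusted p of 0.05 with Maresin 1 against control. Kcna1 and Kcna2, axonal channels that hold down excitability, differed after surgery by -0.05 (SE 0.06) and 0.02 (SE 0.07), and the sign of Kcna1 turned under 2 scalings. With Maresin 1 against surgery Kcna2 stood at 10.51, 10.49 and 10.46, below surgery at 10.52, 10.57 and 10.69, by -0.10 (SE 0.07, adjusted p = 0.873 by limma). Kcnc1 and Kcnc2 serve fast-spiking interneurons. Kcnc1 was at 9.94, 9.82 and 9.82 in control, 9.67, 9.73 and 9.85 in surgery and 9.69, 9.75 and 9.69 in Surgery+Maresin1, and the last group lay below the controls by -0.15 (SE 0.06, adjusted p = 0.339 by limma). Kcnc2 differed from control in the same direction by -0.13 (SE 0.07) with overlap, and Kcnb2 by -0.11 (SE 0.07).

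The M-current genes Kcnq3 and Kcnq5, whose channels damp repetitive firing and close on muscarinic stimulation, gave small values. Kcnq3 differed by 0.02 (95% interval -0.10 to 0.15) after surgery and by -0.04 (-0.16 to 0.09) with Maresin 1 against surgery. Kcnq5 stood at 10.36, 10.29 and 10.29 in control and 10.02, 10.25 and 10.26 in Surgery+Maresin1, which did not overlap and differed by -0.14 (SE 0.08, adjusted p = 0.555 by limma), or by -0.059 without Surgery+Maresin1 replicate 1. Its surgery arrays spread over both, from 10.09 to 10.38.

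The silent subunits form channels only together with other pore subunits. Kcns1, one of them, stood at 8.19, 8.07 and 8.27 in control, 8.31, 8.33 and 8.34 in surgery and 8.40, 8.32 and 8.23 in Surgery+Maresin1. Surgery lay above control without overlap, by 0.15 (SE 0.08, adjusted p = 0.796 by limma), or by 0.095 without control replicate 2. Other pore genes, singled out here after their values were seen, also passed an unadjusted p of 0.05 or did not overlap in one comparison. They were the silent Kcng1, Kcns3 and Kcnv1, and Kcna5 and Kcna10, which are not silent subunits. In Maresin 1 with surgery against control 11 of the 34 pore genes lay above 0 and 23 below. An unadjusted p under 0.05 was found for 6, 17.6% beside 11.5% of all genes and 14.8% of genes above the olfactory guide. These 6, namely Kcna4, Kcna5, Kcnc1, Kcnd1, Kcnh2 and Kcnh3, were lower, as were 1056 of the 2160 genes past that threshold.

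**Figure D3:**
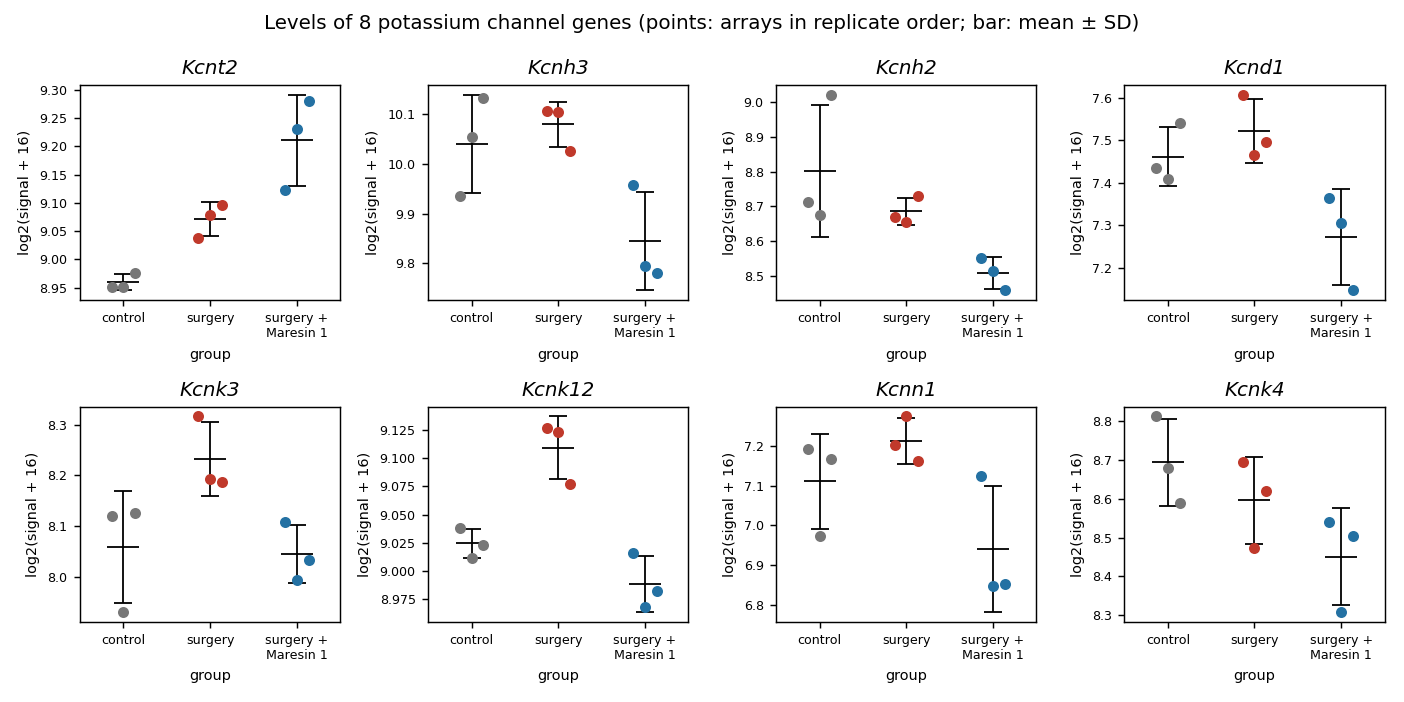
Levels, log2(signal + 16), of 8 potassium channel genes in each array (points, in replicate order) with the group mean and SD (bars), for control, surgery and surgery with Maresin 1. Kcnt2 lies between 8.95 and 8.98 in control and reaches 9.28 in one Surgery+Maresin1 array, and Kcnk3 is highest in surgery, at 8.19 to 8.32.

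The auxiliary subunits of voltage-gated channels gave no gene at an unadjusted p under 0.05 in any comparison. The beta subunits are cytoplasmic proteins, some of which speed inactivation. Among their genes, Kcnab1 stood at 10.44, 10.45 and 10.43 in control, 10.46, 10.41 and 10.48 in surgery and 10.47, 10.51 and 10.66 in Surgery+Maresin1. The last group lay above control without overlap, by 0.10 (SE 0.05, adjusted p = 0.494 by limma), and Surgery+Maresin1 replicate 3 was the highest array, without which the difference was 0.048. Kcnab2 was lower with Maresin 1 against surgery without overlap, by -0.08 (SE 0.04, adjusted p = 0.859 by limma), and Kcnab3 by -0.18 (SE 0.10) with overlap.

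The Kcnip genes encode calcium-binding partners that bring the A-type channels of dendrites to the membrane. Kcnip2, Kcnip3 and Kcnip4 differed after surgery by -0.07, 0.05 and 0.04, each with an SE of 0.05 to 0.07, and the sign of Kcnip2 turned under 2 scalings. Kcnip1, the interneuron-rich member, differed by 0.11 (SE 0.12) after surgery, and its lowest array was control replicate 2 at 8.45. Kcne4, a single-span subunit below the olfactory guide, stood at 5.05, 5.25 and 5.35 in control, 5.60, 5.31 and 5.46 in surgery and 5.31, 5.11 and 5.37 in Surgery+Maresin1. Its surgery difference was 0.24 (SE 0.11, adjusted p = 0.794 by limma), with overlap. Kcne1l was the auxiliary gene with the widest interval, -0.14 to 0.60 after surgery.

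The class medians of the auxiliary genes were 0.0341 after surgery, -0.0658 with Maresin 1 against surgery and 0.0282 with Maresin 1 against control, the last turning to -0.0027 with no normalisation between arrays. On single arrays the class median lay between -0.0248 and 0.0114 in control, -0.0098 and 0.0507 in surgery, and -0.0218 and -0.0053 in Surgery+Maresin1. The 3 ranges overlap.

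Among inward rectifiers, the G-protein-gated genes Kcnj3, Kcnj6 and Kcnj9 carry the slow inhibitory current set off by GABA, adenosine and serotonin receptors. Kcnj3 stood at 10.54, 10.49 and 10.62 in control, 10.52, 10.51 and 10.62 in surgery and 10.46, 10.57 and 10.63 in Surgery+Maresin1. The groups covered each other, and the 95% interval of the surgery difference was -0.13 to 0.12. Kcnj6 differed by -0.08 (SE 0.08) and Kcnj9 by 0.12 (SE 0.08) after surgery, with adjusted p of 0.89 and 0.829 by limma, and the sign of Kcnj6 turned under 2 scalings. The intervals of all 3 genes stayed within 1.5-fold in each comparison.

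Kcnj10 and Kcnj16 encode the astrocyte channel that clears potassium from around active neurons. Kcnj10 was at 10.40, 10.33 and 10.63 in control, 10.49, 10.58 and 10.42 in surgery and 10.71, 10.29 and 10.36 in Surgery+Maresin1. Arrays of one group spread more widely than the group means, which differed by 0.04 (SE 0.10) after surgery. Kcnj16 gave 0.04 (SE 0.10) after surgery and -0.05 (SE 0.10) with Maresin 1 against surgery. Kcnj10 was highest in Surgery+Maresin1 replicate 1 and Kcnj16 in control replicate 3. The summed astrocyte markers ran from 12342 to 13775 in control, 13583 to 14082 in surgery and 13389 to 15309 in Surgery+Maresin1.

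The strong rectifiers Kcnj2 and Kcnj4 set the resting potential of many cells. Kcnj2 differed by -0.04 (SE 0.13) after surgery and 0.15 (SE 0.13) with Maresin 1 against surgery, where the surgery arrays spread from 6.82 to 7.36. Kcnj4 differed by -0.14 (SE 0.10) with Maresin 1 against surgery. Kcnj14, of the same subfamily and below the olfactory guide, stood at 5.59, 5.22 and 5.20 in control, 4.97, 5.56 and 5.26 in surgery and 5.58, 5.70 and 5.57 in Surgery+Maresin1. Its difference of 0.36 (SE 0.14, adjusted p = 0.859 by limma) from surgery, at a level below the guide to background, was the largest among the members in that comparison, and was 0.21 without surgery replicate 1.

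The ATP-sensitive channels couple metabolism to potassium current. Kcnj11, the neuronal pore, stood at 8.03, 7.96 and 8.10 in control, 8.08, 8.07 and 8.07 in surgery and 7.99, 7.93 and 7.94 in Surgery+Maresin1. Surgery+Maresin1 lay below surgery by -0.12 (SE 0.07, adjusted p = 0.859 by limma). Kcnj8 (probe set 10549102) encodes the pore of pericytes and smooth muscle. It stood at 6.83, 6.78 and 6.67 in control, 6.92, 7.14 and 7.02 in surgery and 7.08, 6.85 and 6.94 in Surgery+Maresin1. Both surgery groups lay above all controls, by 0.27 (SE 0.10, adjusted p = 0.734 by limma) and 0.20 (SE 0.10, adjusted p = 0.463 by limma). In the deposited signals the groups overlapped, with 125.82, 85.36 and 77.05 in control and 72.97, 139.84 and 128.04 in surgery.

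Other genes of the vessel wall stood beside it. Kcnmb1, the smooth muscle subunit that makes the large-conductance channel more sensitive to calcium, was at 6.23, 6.34 and 6.81 in control, 6.53, 7.08 and 6.70 in surgery and 6.58, 6.94 and 6.64 in Surgery+Maresin1. Its surgery difference was 0.31 (SE 0.17, adjusted p = 0.801 by limma), with control replicate 3 inside the surgery range. It was 0.19 without control replicate 1, 0.48 without control replicate 3 and 0.16 without surgery replicate 2. Abcc9, the sulphonylurea receptor that pairs with Kcnj8, differed by 0.20 after surgery with overlap, and Abcc8, the neuronal receptor that pairs with Kcnj11, by -0.17 (SE 0.07) without overlap.

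The 6 pericyte and smooth muscle markers were higher after surgery in 6 of 6 genes, by 0.36 on average, and in 5 of 6 by 0.25 with Maresin 1 against control. Their summed signal was 2392 to 2497 in control, 2954 to 3141 in surgery and 2393 to 3200 in Surgery+Maresin1, and none was at 0. Endothelial markers were higher in 6 of 6 in both comparisons with control, by 0.39 on average, with sums of 1539 to 1642 in control, 2074 to 2168 in surgery and 1784 to 2477 in Surgery+Maresin1. Array by array, the pericyte list was below 0 in the controls (-0.21, -0.28 and -0.12), and Kcnj8 was lower there than in any other array. Within Surgery+Maresin1 (list 0.21, -0.11 and 0.05) Kcnj8 kept the order of the list. Replicate 2 there had the lowest Kcnj8 (6.85) but the highest Kcnmb1 (6.94) of its group. Within surgery the list values lay close together (0.19, 0.15 and 0.12). Surgery replicate 1, highest of its group in the list, had the lowest Kcnj8 (6.92) and Kcnmb1 (6.53) of its group. The part of vessel cells in the Kcnj8 and Kcnmb1 values was not tested.

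**Figure D4:**
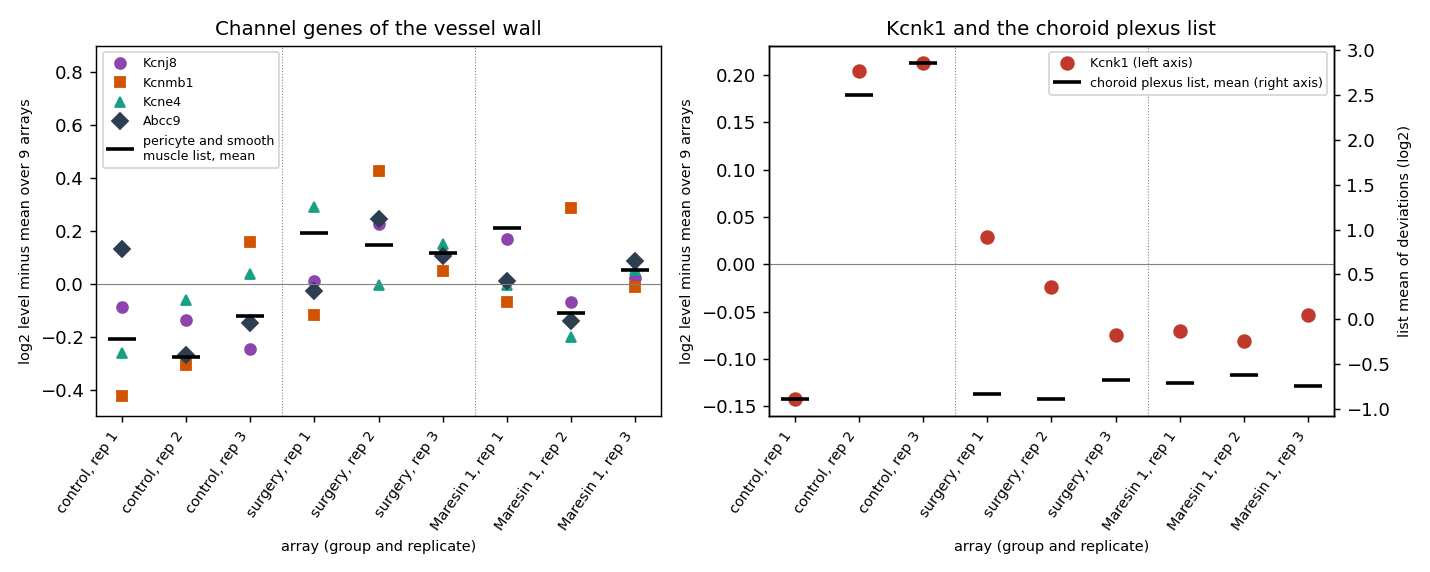
Left, deviations from the 9-array mean (log2) of Kcnj8, Kcnmb1, Kcne4 and Abcc9 in each array, with the mean of the pericyte and smooth muscle list as a dash; right, Kcnk1 (left axis) with the choroid plexus list (right axis). The pericyte list lies below 0 in the 3 controls and above 0 in the 3 surgery arrays, and Kcnk1 is highest in control replicates 2 and 3, where the choroid plexus list is at 2.50 and 2.86.

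Two-pore channels carry the leak current that holds neurons near rest. The acid-sensitive gene Kcnk3 (probe set 10520506) stood at 8.12, 7.93 and 8.13 in control, 8.32, 8.19 and 8.19 in surgery and 8.11, 7.99 and 8.03 in Surgery+Maresin1. All surgery arrays lay above all arrays of the other groups. The differences were 0.17 (SE 0.08, adjusted p = 0.786 by limma) after surgery, or 0.11 without control replicate 2, and -0.19 (SE 0.08, adjusted p = 0.859 by limma) with Maresin 1 against surgery, and both use the same 3 surgery arrays. Maresin 1 with surgery differed from control by -0.01 (95% interval -0.18 to 0.16). Kcnk9, its partner in heteromers, gave -0.12 (SE 0.08) and 0.11 (SE 0.08) in the first pair of comparisons, the opposite signs, and both turned under 2 scalings.

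Kcnk12, a halothane-inhibited channel subunit, gave small but narrow values of the same shape as Kcnk3. It was at 9.04, 9.01 and 9.02 in control, 9.13, 9.12 and 9.08 in surgery and 9.02, 8.97 and 8.98 in Surgery+Maresin1. Surgery again held the highest 3 arrays, by 0.09 (SE 0.05, adjusted p = 0.829 by limma) over control and with -0.12 (SE 0.05, adjusted p = 0.859 by limma) for Maresin 1 against surgery. Kcnk13, its microglial relative, did not share this order. It stood at 7.26, 7.17 and 7.04 in control and 7.29, 7.40 and 7.30 in Surgery+Maresin1, 0.17 apart (SE 0.10, adjusted p = 0.573 by limma). Kcnk15, at the edge of the olfactory guide, differed by -0.22 (SE 0.09, adjusted p = 0.859 by limma) with Maresin 1 against surgery.

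The mechanosensitive genes Kcnk2, Kcnk4 and Kcnk10 open with stretch and polyunsaturated fatty acids. Kcnk4 stood at 8.81, 8.68 and 8.59 in control, 8.69, 8.47 and 8.62 in surgery and 8.54, 8.31 and 8.50 in Surgery+Maresin1. The last group lay below the controls by -0.24 (SE 0.09, adjusted p = 0.287 by limma). Kcnk2 differed in that comparison by 0.03 (SE 0.07) and Kcnk10 by -0.04 (SE 0.08), with intervals from -0.14 to 0.19 and from -0.22 to 0.14.

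Kcnk1 (probe set 10576581), a weak inward rectifier of neurons and astrocytes, depended on which controls were used. It stood at 10.10, 10.45 and 10.46 in control, 10.27, 10.22 and 10.17 in surgery and 10.17, 10.16 and 10.19 in Surgery+Maresin1. Control replicates 2 and 3, which carry the choroid plexus signal, held the highest values and control replicate 1 the lowest. Maresin 1 with surgery differed from control by -0.16 (SE 0.08, adjusted p = 0.483 by limma) with all controls, by -0.28 (adjusted p = 0.0219 by limma) without control replicate 1, and by 0.07 against control replicate 1 alone. It was the one member called under any of the alternatives. Without control replicate 1 that comparison called 1 of 85 members beside 245 of 18820 genes, 183 of these lower, so the call does not set Kcnk1 apart. The part of the choroid plexus signal in the Kcnk1 values was not tested.

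The calcium-activated class opens with Kcnma1, the large-conductance channel that speeds spike repolarisation. It stood at 10.68, 10.55 and 10.55 in control, 10.54, 10.60 and 10.62 in surgery and 10.48, 10.51 and 10.66 in Surgery+Maresin1, and the 95% interval of the surgery difference was -0.13 to 0.12. Its neuronal partner Kcnmb4 differed by 0.10 (SE 0.10) after surgery and -0.17 (SE 0.10) with Maresin 1 against surgery, adjusted p 0.906 and 0.868 by limma.

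The small-conductance genes Kcnn1, Kcnn2 and Kcnn3 give the afterhyperpolarisation that follows a burst. Kcnn1 (probe set 10579422) was at 7.19, 6.97 and 7.17 in control, 7.20, 7.27 and 7.16 in surgery and 7.12, 6.85 and 6.85 in Surgery+Maresin1. The Surgery+Maresin1 arrays lay below surgery by -0.27 (SE 0.10, adjusted p = 0.859 by limma) and overlapped the controls. Kcnn2, the main subunit of pyramidal cells, differed by -0.02 (95% interval -0.18 to 0.14) after surgery. Kcnn3 differed by 0.08 (-0.08 to 0.25). The intermediate-conductance gene Kcnn4, found on microglia and blood cells and here below the olfactory guide, differed by -0.20 (SE 0.09, adjusted p = 0.859 by limma) with Maresin 1 against surgery.

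Kcnt2 (probe set 10350438) encodes a sodium-activated channel that shapes the slow potential after a burst, and had the smallest p of any member. Its levels were 8.95, 8.95 and 8.98 in control, 9.04, 9.08 and 9.10 in surgery, and 9.12, 9.23 and 9.28 in Surgery+Maresin1. The 3 groups did not overlap in any pair. Maresin 1 with surgery lay above control by 0.25 (SE 0.06, adjusted p = 0.129 by limma), a 1.19-fold difference. Surgery lay above control by 0.11 (SE 0.06, adjusted p = 0.796 by limma) and Maresin 1 with surgery above surgery by 0.14 (SE 0.06, adjusted p = 0.859 by limma).

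The order of the groups for Kcnt2 appears after normalisation. The deposited signals were 647.06, 365.18 and 440.64 in control, 359.63, 614.96 and 630.80 in surgery and 539.45, 549.21 and 595.29 in Surgery+Maresin1, which overlap. The difference from control ran from 0.22 to 0.30 over the alternatives and the smallest adjusted p among them was 0.0788, while the difference between the surgery groups ran from 0.0062 to 0.18. Its relative Kcnt1 gave -0.05 (SE 0.10) against control. The class medians of the calcium-activated group were 0.0842 after surgery, -0.0375 with Maresin 1 against surgery and -0.0287 with Maresin 1 against control. With one array left out they ran from 0.03 to 0.12, from -0.061 to -0.0044 and from -0.045 to 0.029, so that the last changed sign.

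Partner and potassium-handling genes outside the Kcn symbols were measured for 27 of the 31 listed, and none was called in any comparison by limma. At an unadjusted p under 0.05 there were 3, 2 and 3 of them in the order of comparisons above, 11.1%, 7.41% and 11.1% beside 6.21%, 5.66% and 11.5% of all genes. Differences below 0 numbered 17 after surgery, 16 with Maresin 1 against surgery and 19 with Maresin 1 against control. These are 63.0%, 59.3% and 70.4% of the partners, beside 41.6%, 58.3% and 51.0% of all genes. The medians were -0.0111, -0.0201 and -0.0542, beside 0.0195, -0.0191 and -0.0032 of all genes.

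The chloride importer gene Slc12a2, which choroid plexus also expresses, stood at 9.78, 10.08 and 10.01 in control, 9.76, 9.55 and 9.66 in surgery and 9.74, 9.84 and 9.84 in Surgery+Maresin1. Its highest arrays were the controls with the choroid plexus signal, and the surgery difference was -0.30 (SE 0.08, adjusted p = 0.63 by limma). The part of that signal was not tested. Hcn2 and Hcn3 encode channels that open on hyperpolarisation and oppose the potassium currents. Hcn2 stood at 10.34, 10.32 and 10.24 in surgery and 10.27, 9.93 and 10.09 in Surgery+Maresin1, a difference of -0.20 (SE 0.07, adjusted p = 0.859 by limma) with overlap. Against control the difference of Hcn2 with Maresin 1 was -0.23 (SE 0.07, adjusted p = 0.244 by limma) without overlap. Hcn3 differed with Maresin 1 against surgery by -0.29 (SE 0.11, adjusted p = 0.859 by limma).

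Lrrc55, a gamma subunit of the large-conductance channel, had the smallest p of the partners with Maresin 1 against control. Its levels were 8.46, 8.40 and 8.58 in control, 8.47, 8.25 and 8.17 in surgery and 8.08, 8.20 and 8.22 in Surgery+Maresin1. The last group lay below the controls by -0.31 (SE 0.09, adjusted p = 0.186 by limma). Dpp10, which binds the A-type channels of dendrites, differed from control by 0.26 (SE 0.12, adjusted p = 0.44 by limma) with overlap. The gamma subunit genes Lrrc26 and Lrrc52, both below the olfactory guide, gave -0.23 after surgery and -0.19 with Maresin 1 against control, and Adam23 gave -0.08 with Maresin 1 against surgery.

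Some members lie next to each other on a chromosome. Of 10 pairs of members that neighbour each other in the RefSeq gene order, 3 shared a sign between their genes within each comparison. These were Kcnj9 with Kcnj10, Kcna2 with Kcna10 and Kcna5 with Kcna1, and no test was made of this count. Kcnj10 differed by only 6e-04 with Maresin 1 against control, a sign that turned under 3 scalings. Kcnip1 and Kcnmb1, neighbours on chromosome 11, had differences of 0.11 and 0.31 after surgery, but 0.05 and -0.05 with Maresin 1 against surgery. Where a gene had 2 probe sets, Kcnd3 gave one sign from both in each comparison. Kcnh8 gave -0.0337 from the probe set used and 0.0808 from the other with Maresin 1 against surgery.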

How the data were processed

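RNA of mouse hippocampus was measured on 9 Affymetrix arrays, 3 per group, and the groups were read from the sample titles. The authors' deposited values are intensity, a linear signal for 35556 probe sets per array, for which the submitters' processing notes name Affymetrix Expression Console. Version, algorithm and genome build: not given in the sources used here. Of the probe sets, 21218 name 1 gene, 1881 several and 12457 are not listed with a gene. Gene identifiers of 21185 of the 21218 matched the RefSeq gene table, and the rest kept their listed symbol. The 21218 probe sets gave 18820 genes, and all 85 members matched the RefSeq table. Signals were quantile normalised, 16 was added and log2 taken; the probe set with the highest mean stood for a gene. No filter on dim genes was applied.

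Groups were compared in R 4.3.3 by limma 3.58.1, fitting all arrays in a single model without covariates (eBayes with trend), and Benjamini-Hochberg adjustment over all genes. Errors are the model's standard error (SE) for differences and SD for levels, with n = 3 per group. The pipeline was tested on simulated data. The members, the partner and marker lists and the tests were chosen with earlier results of these data known. Named genes are a fixed list of 40 known in hippocampus, of which 38 were measured, with the 3 members of smallest p in each class and comparison, called members, and the 4 partners of smallest p in each comparison. Alternatives were other scalings, constants of 1 and 64, a dim-gene filter, all probe sets, a constant prior, 2-group fits, a replicate block and leaving out arrays. Replicate numbers were not taken to pair arrays, except in the replicate block. Promoter windows came from RefSeq, GRCm38.p6.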

Additional observations from a re-analysis of the deposited data

How the results depend on the processing

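Over 20 alternatives, the potassium channel genes called stayed at 0 in surgery against control and in Maresin 1 with surgery against surgery. In Maresin 1 with surgery against control the count was 0 to 1 when an array was left out, the 1 being Kcnk1 at -0.28 without control replicate 1, and 0 under the other alternatives. Of 5055 member values under an alternative, 4805 stayed within the spread between replicates, 248 moved further, 387 had the other sign, and the one reversal of a gene with an unadjusted p under 0.05 was Kcnh1 in Maresin 1 with surgery against surgery, at -0.0093 with arrays scaled to one median.

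All genes called, against 0, 0 and 16, were 42, 0 and 43 with no normalisation between arrays (2 higher and 41 lower in Maresin 1 with surgery against control, against 13 and 3), 37, 0 and 38 with arrays scaled to one median, and 67, 1 and 63 with log2 values centred. In Maresin 1 with surgery against control they were 0 with a constant variance prior, 0 with only the arrays of the 2 groups, 4 with control replicate 1 as the sole control, and 0 with the replicate block. Same-numbered arrays correlated at -0.24 to 0.055 in deviations from the group means. These values show no pairing by number, but with so few arrays they cannot exclude it. Under the block 0 members were called in each comparison. Leaving out one array gave 0 to 169, 0 to 0 and 0 to 245 genes, the high counts being without control replicate 1.

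Class medians moved both with scaling and with single arrays. In surgery against control, with arrays scaled to one median, they were 0.13 for voltage-gated pore, 0.17 for auxiliary, 0.10 for inward rectifier, 0.078 for two-pore and 0.16 for calcium-activated genes, beside 0.10 for all genes, and with centred values 0.12, 0.15, 0.11 and 0.079 for the opening 4 classes. Two-pore genes were at -0.037 with no normalisation and pore genes at -0.023 against control replicate 1 alone. In Maresin 1 with surgery against surgery the same order of 5 classes gave -0.19, -0.14, -0.12, -0.13 and -0.13 scaled, and -0.17, -0.12, -0.13, -0.12 and -0.11 centred, beside -0.089 and -0.086 for all genes. Pore genes were at -0.088 and auxiliary genes at -0.039 with no normalisation, and auxiliary genes at -0.039 with a constant of 64 and -0.033 with dim genes filtered. In Maresin 1 with surgery against control auxiliary genes were at -0.0027 with no normalisation and pore genes at -0.080 against control replicate 1 alone. With one array left out, the pore medians ran from -0.010 to 0.037, -0.079 to -0.037 and -0.088 to -0.025 in the 3 comparisons, the auxiliary ones from 0.017 to 0.046, -0.094 to -0.018 and -0.047 to 0.041, those of inward rectifiers from 0.0049 to 0.060, -0.088 to -0.012 and -0.030 to 0.063, those of two-pore genes from -0.011 to 0.058, -0.075 to -0.011 and -0.057 to -0.010, and those of calcium-activated genes from 0.030 to 0.12, -0.061 to -0.0044 and -0.045 to 0.029. The causes were not tested. The number of arrays and the level near background of 15 members limit what can be seen.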
